A study of Canis lupus familiaris with 37 samples.

Results

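The 92 genes described here are long non-coding RNAs (lncRNAs) from the study's own list of 97 lncRNAs whose expression differed between canine lymphomas or lymphoid cell lines and non-neoplastic lymph nodes. The 5 lncRNAs that the study singled out for the T-cell line OSW were left aside, so counts of lncRNAs restricted to OSW are low by choice. The members were therefore chosen on the contrasts with the controls, and every difference from the controls below is a description of that choice and carries no test. The count files hold 32704 genes, of which 15162 passed a filter on low counts (highest level in any sample above the 40th percentile), and 91 of the 92 members passed it. The files give Ensembl identifiers only, so the members are named by these, and no symbol, position or sequence was matched to them here.

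Long non-coding RNAs are transcribed, spliced and often polyadenylated like messenger RNAs but hold no long reading frame. Many stay in the nucleus and act through the chromatin, RNA or proteins they bind, and others reflect the transcription of a locus without a known function of their own. They are in general less abundant and confined to fewer cell types than messenger RNAs, and in lymphocytes many change as B cells and T cells develop and are activated.

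Poly-A RNA of dogs was sequenced from 4 non-neoplastic lymph nodes (controls), 12 multicentric B-cell lymphomas, 3 intestinal lymphomas and 1 T-cell lymphoma, the lymphomas being naturally occurring tumours of 16 dogs. The lines were CLBL-1 (5 samples), CLBL-1M (5), GL-1 (1), all derived from B-cell tumours, and OSW (4) and CL-1 (2), derived from T-cell tumours. No sample carried a treatment or an engineered allele, the samples of a line were cultures of 1 line and not of several animals, and CLBL-1M was derived from a tumour that CLBL-1 formed in mouse. The 3 intestinal lymphomas were placed beside the T-cell lymphoma by the study from their expression profiles, and they form 1 arm of 4 with it here, called the T-lineage lymphomas.

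Between 1962722 and 4863730 reads per sample lay on genes (median 2942360), so the floor of 3 counts that was used for detection stood for 0.617 to 1.53 CPM, the count per 1000000 reads on genes. The libraries fell apart by a technical measure, the share of reads on genes that lay on more than 1 gene, which was 2.78% in control replicate 4, 1.29 to 1.87% in the 17 line samples, and 0.333 to 0.959% in the other 3 controls and the 16 lymphomas. Control replicate 4 is titled a control, but its source label names a T-cell line, and results that rest on it are given with and without it. In all 10 CLBL-1 and CLBL-1M samples the title gives the one line and the name of the deposited file the other, so which of the pair a sample is rests on the titles, and the tests take both lines together. CLBL-1 replicates 1 and 3 and CLBL-1M replicate 2 stood apart from the other 7 CLBL samples, lying above or below all of them in 16 of the 92 members and in 16.6% of the tested genes, and tests that involve the CLBL lines are given with and without them. The defining markers of the tissues were not examined, because the identifiers in the count files were not paired with symbols here. The study's own list of differentially expressed protein-coding genes gives symbols, but it was not used for this. In bulk samples fewer cells of a type and less RNA per cell cannot be told apart, and a lymph node holds several cell types while a line holds 1.

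Most of the members were present in the lymph nodes and fewer in any tumour. At 3 or more counts, 75 to 85 of the 92 members were detected in each control, 60 to 70 in each lymphoma and 61 to 72 in each line sample. Only 25 members reached 3 counts in all 37 samples, against 60.2% of all tested genes. The highest level that a member reached in any sample ran from 6.09 CPM in ENSCAFG00000036390, the member that failed the filter, to 1810.3 CPM in ENSCAFG00000033861, with a median of 31.4 CPM against 75.997 CPM over the tested genes. For 29 members it was under 20 CPM, and for 17 it was at least 100 CPM. CPM is not divided by transcript length, so these values say at how many reads a member was measured and do not rank the amounts of different RNAs.

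The group with the highest median level was the control group for 35 members, GL-1 for 14, CL-1 for 14, CLBL-1M for 7, B-cell lymphoma for 6, OSW for 6, the T-cell lymphoma for 4, intestinal lymphoma for 3 and CLBL-1 for 3. GL-1 and the T-cell lymphoma are single samples, so their ranks have no replicate check. Summed over the 92 members, the level was 2434 to 2993 CPM in the controls, 1627 to 3387 CPM in the lymphomas and 2096 to 3381 CPM in the lines. These ranges overlap. ENSCAFG00000033861 made up a large part of each sum, and without it the median sum was 2109 CPM in the controls, 1696 CPM in the lymphomas and 1538 CPM in the lines.

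**Figure D1:**
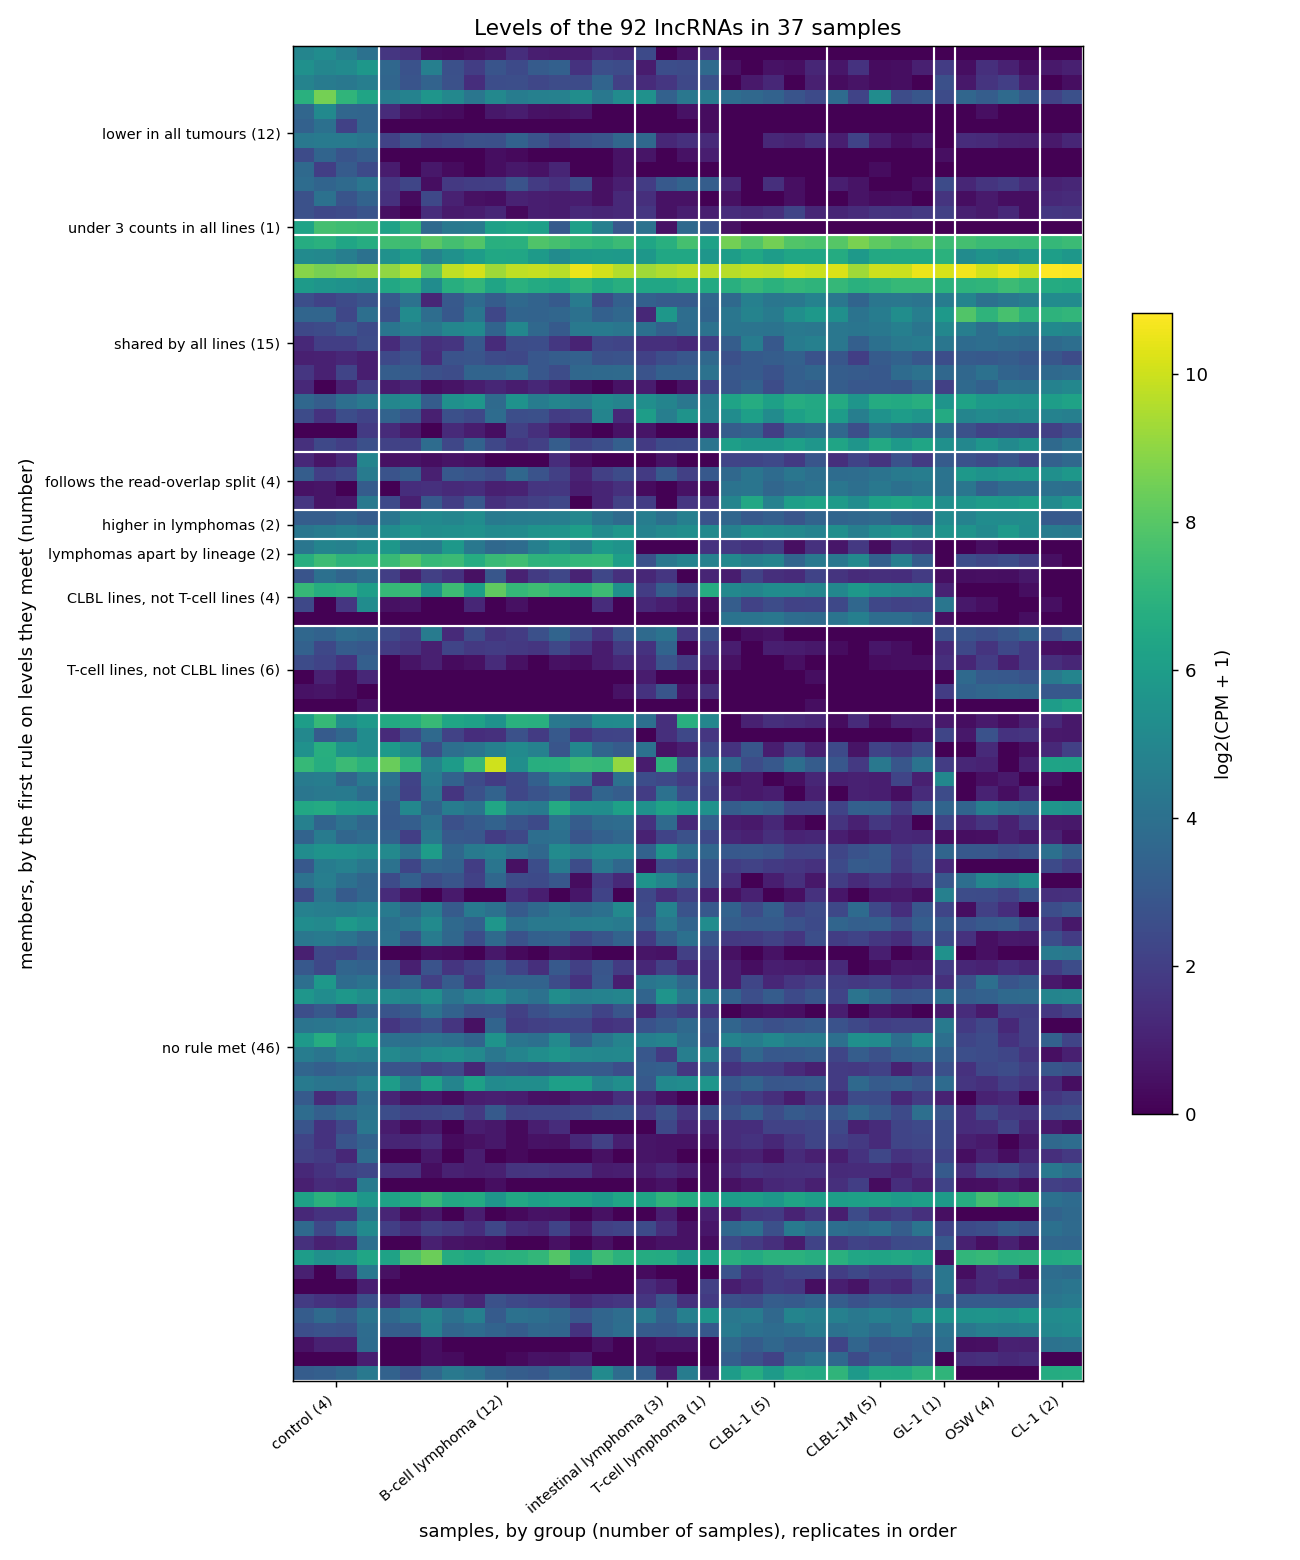
Levels of the 92 lncRNAs (rows) in the 37 samples (columns, in the order of the groups) as log2(CPM + 1). The rows are sorted by the first of 8 rules on levels that each member meets, from 12 members lower in all tumours than in every control at the top to the 46 that meet no rule at the bottom.

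Members lower in every tumour formed the first group. In 12 of the 92 members the highest of all 33 lymphoma and line samples lay below the lowest of the 4 controls, a pattern that 4.09% of the tested genes showed. In the median of these 12 members the lymphomas held 11.7% and the lines 1.86% of the control level. When the 2 sides of the read-overlap split were kept apart, with the lymphomas set against control replicates 1 to 3 and the lines against control replicate 4 alone, 19 members had this pattern. Without control replicate 4 the count was 13.

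ENSCAFG00000034881 was not found in any line. It was at 29.7, 37.2, 25.4 and 15.6 CPM in the controls. The level was 0.245 to 2.29 CPM in the B-cell lymphomas, at 4.34, 0 and 0.449 CPM in the intestinal lymphomas and at 2.29 CPM in the T-cell lymphoma. Not a single read fell on it in any of the 17 line samples. Every tumour thus lay below every control. With the floor of 3 counts in the shallowest line library, the median of the controls was at least 18.2-fold higher than the lines.

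ENSCAFG00000038374 and ENSCAFG00000038716 had lower medians in lymphoma than in lymph node and lower ones still in the lines. The levels of ENSCAFG00000038374 were 27.8, 21.9, 19.1 and 23.5 CPM in the controls, 1.53 to 10.7 CPM (median 4.79) in the lymphomas and 0 to 5.25 CPM (median 0.505) in the lines. Those of ENSCAFG00000038716 were 42.4, 30.1, 35.6 and 52.6 CPM in the controls, 0.766 to 24.3 CPM (median 5.12) in the lymphomas and 0 to 2.80 CPM (median 0.586) in the lines. In neither did a lymphoma reach a control, while the ranges of lymphomas and lines overlapped in both.

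ENSCAFG00000032813 stood highest in the controls among the 12, at 115, 375, 136 and 79.5 CPM, with control replicate 2 far above the rest and control replicate 4 the lowest. The lymphomas held 9.37 to 48.6 CPM (median 25.6) and the lines 3.44 to 37.2 CPM (median 7.29), where CLBL-1M replicate 3 alone reached 37.2 CPM. ENSCAFG00000035346 was even across the controls at 19.2, 20.9, 20.1 and 17.4 CPM and was at 1.34 to 11.5 CPM in the lymphomas and at most 3.53 CPM in the lines. Among the other 7 members of the group the highest level in any control was 34.6 CPM in ENSCAFG00000036899, and in ENSCAFG00000036390 no control exceeded 6.09 CPM.

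A related set was under the floor of 3 counts in every line sample. Of the 92 members, 6 stayed under 3 counts in all 17 line samples while at least 3 of the 4 controls reached it (4.35% of the tested genes), and 5 of these are among the 12 above. Without control replicate 4 the count was also 6. The sixth, ENSCAFG00000037515, was at 76.2, 191, 176 and 166 CPM in the controls. It ranged from 6.78 to 141 CPM (median 46.1) in the B-cell lymphomas and was at 16.1, 0.446 and 12.1 CPM in the intestinal lymphomas and 5.73 CPM in the T-cell lymphoma. In the lines 16 of 17 samples had no read, and CLBL-1 replicate 1 had 0.404 CPM. The highest B-cell lymphoma lay within the range of the controls, the intestinal and T-cell lymphomas lay below every control, and the lowest lymphoma, at 0.446 CPM, was like CLBL-1 replicate 1 under the floor.

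Lower levels in lines than in lymph nodes were the most common pattern. All 17 line samples lay below every control in 35 members, against 15.4% of the tested genes, and all 16 lymphomas did so in 20 members, against 6.23%. Without control replicate 4 these counts were 35 and 21. By a rule on group medians that was added after the values were seen, every line median lay below every control in 42 members (18.9% of the tested genes), 22 of them among the 46 that met none of the 8 rules, and in 42 without control replicate 4. ENSCAFG00000036211 was such a case, at 64.3, 150.3, 39.2 and 56.9 CPM in the controls and 0 to 1.72 CPM in the lines, while the B-cell lymphomas ranged over 14.3 to 156 CPM (median 76.6) and the intestinal lymphomas were at 14.3, 1.79 and 113 CPM. The lymphomas overlapped the controls, and the lines overlapped neither.

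Members shared by the lines were the counterpart. In 17 members every line sample lay above every control, against 9.08% of the tested genes, and in 15 of these no read-overlap rule was met. Without control replicate 4 the count was 22, and with control replicate 4 as the only control it was 17. Relative to the controls the median line level of the 14 members with a ratio ran from 2.25 to 14.3 times, with a median of 4.50, and the lymphomas from 0.649 to 5.94 times, with a median of 1.80.

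ENSCAFG00000033861, the most deeply read member, was at 462, 393, 442 and 528 CPM in the controls and 266 to 1468 CPM (median 873) in the B-cell lymphomas. The T-lineage lymphomas held 623 to 848 CPM, the CLBL samples 621 to 1468 CPM, OSW 1563, 1080.2, 1463 and 1034 CPM and CL-1 1810.3 and 1708 CPM. Its lines overlapped the lymphomas but not the controls, and only 1 B-cell lymphoma lay below every control.

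ENSCAFG00000038531 was at 59.3, 49.4, 44.5 and 39.99 CPM in the controls, 37.4 to 139 CPM (median 96.4) in the lymphomas and 94.2 to 172 CPM (median 132) in the lines. ENSCAFG00000035509 was at 103, 117, 81.1 and 104 CPM in the controls, 72.8 to 267 CPM (median 168) in the lymphomas and 148 to 399.8 CPM (median 233) in the lines, with the CLBL samples at 216 to 399.8 CPM above all OSW and CL-1 samples. ENSCAFG00000039593 had the opposite order among lines. It was at 10.5, 10.7, 3.95 and 14.3 CPM in the controls, 16.7 to 53.3 CPM in CLBL-1 and CLBL-1M, 234, 129.5, 201 and 126 CPM in OSW and 127 and 139 CPM in CL-1, and GL-1 lay next to the CLBL samples at 56.1 CPM. The T-cell lines thus stood above all B-cell lines in ENSCAFG00000039593 and below the CLBL lines in ENSCAFG00000035509.

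ENSCAFG00000035129 was higher in most tumours, at 35.1, 32.1, 23.7 and 15.2 CPM in the controls, 28.03 to 87.5 CPM (median 57.1) in the lymphomas and 36.2 to 119 CPM (median 65.6) in the lines, GL-1 being the highest of all samples. In 3 members all 33 tumour samples lay above every control (2.18% of the tested genes), also without control replicate 4. These were ENSCAFG00000039855, ENSCAFG00000036896 and ENSCAFG00000033734, named for this count after their values were seen. ENSCAFG00000039855 was at 4.11, 4.59, 6.59 and 4.35 CPM in the controls, 7.43 to 34.1 CPM (median 17.6) in the lymphomas and 13.9 to 34.4 CPM (median 19.05) in the lines. The other two were near or under the floor of 3 counts in the controls, at 0.869 to 1.32 CPM and 0.869 to 3.63 CPM, and at 1.56 to 11.5 CPM and 4.67 to 15.8 CPM in the lymphomas.

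Higher levels in the primary lymphomas were also looked for. All 12 B-cell lymphomas lay above every control in 5 members (5.09% of the tested genes) and all 4 T-lineage lymphomas in 9 (8.77%), shares close to those of all genes. Of the 10 members concerned, 8 were also shared by the lines, and without control replicate 4 there were 14. The remaining pair were ENSCAFG00000035091 and ENSCAFG00000036275. ENSCAFG00000035091 was at 18.3, 21.9, 25.4 and 21.7 CPM in the controls, 35.1 to 65.6 CPM (median 42.05) in the B-cell lymphomas and 27.1 to 39.03 CPM in the T-lineage lymphomas, with the CL-1 samples inside the control range at 21.99 and 19.5 CPM. ENSCAFG00000036275 was at 8.21, 8.15, 10.2 and 7.82 CPM in the controls and 12.2 to 36.999 CPM (median 23.5) in the B-cell lymphomas, and the T-cell lymphoma, at 5.73 CPM, was the only lymphoma that did not exceed the controls. Among the lines OSW was high at 26.98, 37.004, 36.6 and 39.01 CPM, GL-1 was at 34.3 CPM, and the CLBL and CL-1 samples lay at 6.33 to 12.2 CPM and 7.22 to 7.44 CPM.

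**Figure D2:**
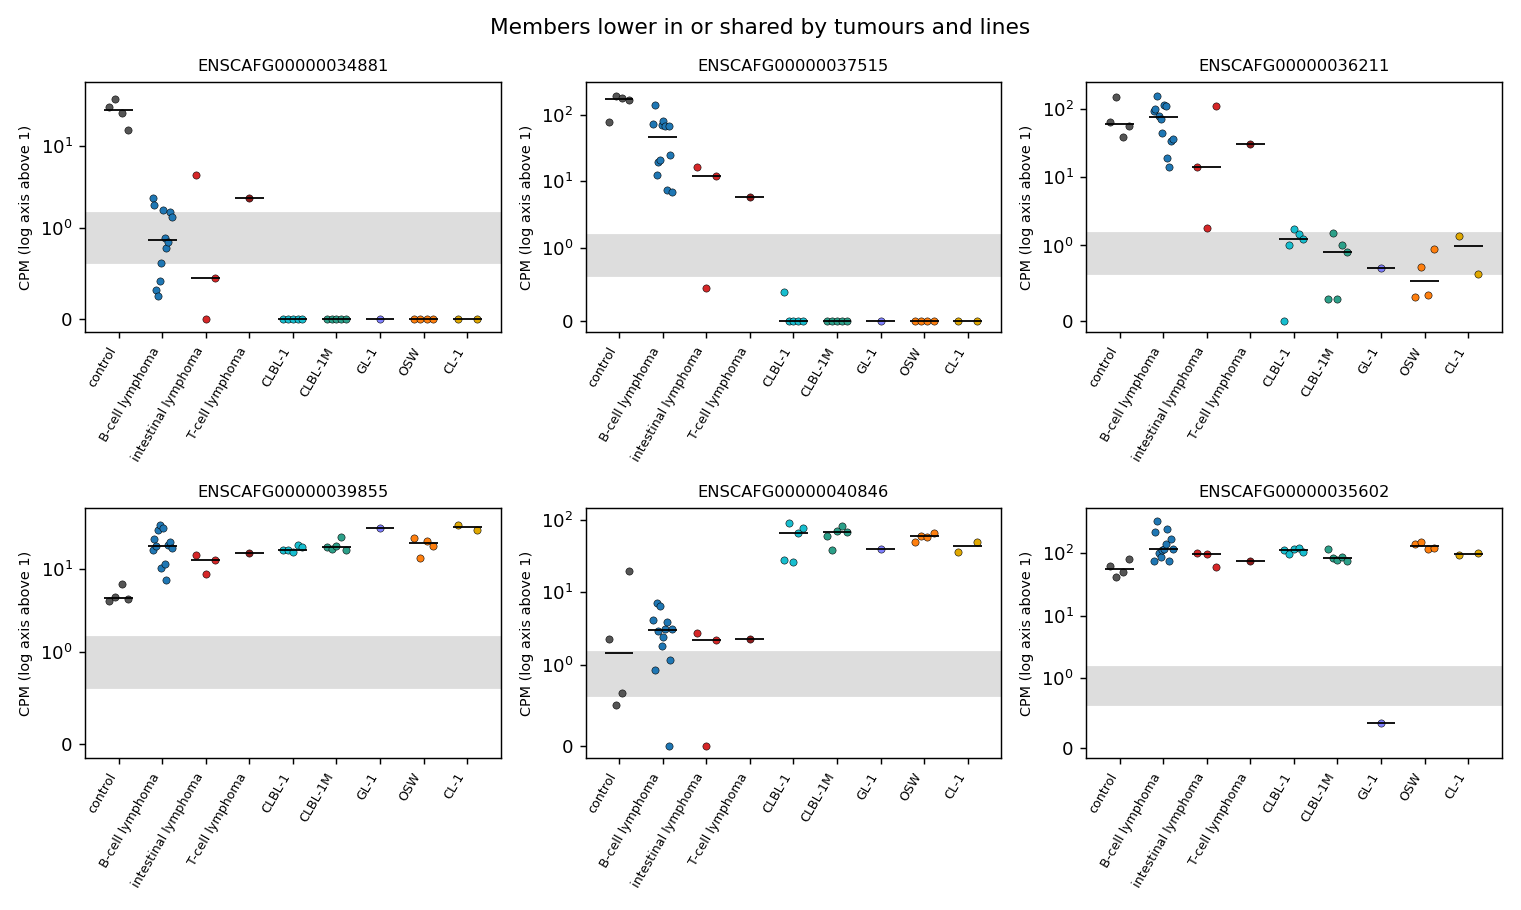
CPM of 6 members in every sample by group, with the median of each group as a line and the range of 3 counts over the libraries as a grey band (log axis above 1 CPM, linear below). ENSCAFG00000034881 and ENSCAFG00000037515 reach the controls and part of the lymphomas but not the lines, ENSCAFG00000036211 is lower in every line sample than in any other sample, ENSCAFG00000039855 is above every control in all 33 tumours, ENSCAFG00000040846 has control replicate 4 beside the lines, and ENSCAFG00000035602 is under the floor in GL-1 only.

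Some members followed the read-overlap split. In 4 members the 17 line samples and control replicate 4 all lay above the 16 lymphomas and control replicates 1 to 3 (0.864% of the tested genes), and no member had the converse order (0.218%, and 1.08% in either order). In ENSCAFG00000034350 control replicates 1 to 3 were at 0.456, 0.509 and 0 CPM and control replicate 4 at 7.82 CPM, the lymphomas at most at 2.35 CPM and the lines at 9.25 to 19.3 CPM. ENSCAFG00000040846 had 2.28, 0.509 and 0.659 CPM in control replicates 1 to 3, 19.99 CPM in control replicate 4, up to 7.16 CPM in the lymphomas and 26.3 to 90.1 CPM in the lines. The other two were ENSCAFG00000034748, with the lines at 11.7 to 57.7 CPM and control replicate 4 at 21.7 CPM, and ENSCAFG00000039943, where control replicate 4 at 28.3 CPM stood above every line. For these members a difference between lymph node and line cannot be told apart from the technical split.

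By a wider rule that was added after the values were seen, control replicate 4 was at least 3 times the highest other control and above every lymphoma in 11 members, against 3.17% of the tested genes. The ratio to the highest other control ran from 3.15 in ENSCAFG00000035115 to 20.6 in ENSCAFG00000039943. In 7 of the 11 OSW was the lowest of the 4 kinds of line, and in 9 GL-1 or CL-1 was the highest. No share of all genes is given for these counts, and the lncRNAs singled out for OSW had been left aside. ENSCAFG00000035758 was at 0.913, 0, 1.32 and 19.1 CPM in the controls, at most 0.382 CPM in the lymphomas, 17.9 CPM in GL-1, 13.7 and 12.4 CPM in CL-1, 2.04 to 6.07 CPM in the CLBL samples and 0.317 to 2.04 CPM in OSW. In ENSCAFG00000037917 control replicate 4 was at 12.6 CPM, the other controls at 0.456 to 1.02 CPM, the lymphomas at most at 0.449 CPM and the lines at 0.317 to 17.1 CPM. Over all members, control replicate 4 was the highest of the 4 controls in 46 of 92, against 35.1% of the tested genes.

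**Figure D3:**
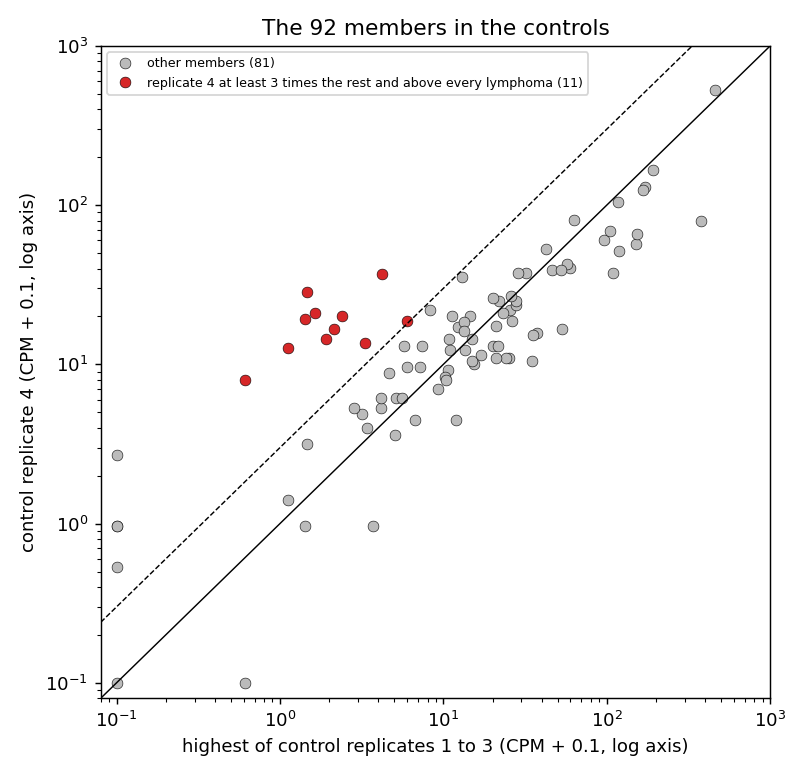
Level of each of the 92 members in control replicate 4 against the highest of control replicates 1 to 3, both as CPM + 0.1 on log axes. The solid line marks equal levels and the dashed line a ratio of 3, and the 11 members in red are at least 3 times higher in control replicate 4 and above every lymphoma there.

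The comparison of the primary lymphomas by lineage was not used to choose the members, but each tumour group had a part in the choice through its contrast with the controls. Shares of members called between tumour groups are therefore set beside those of all genes as a description. The same limit holds for the p-value of a single member, above all where 1 arm set it apart from the controls. The comparison by lineage asks which of the lncRNAs separate B-cell from T-lineage tumours. In edgeR's quasi-likelihood test over all 15162 genes, with an adjusted p of at most 1e-05 as the threshold, 2 of 91 members were higher in B-cell lymphomas (1.06% of all tested genes) and 1 was lower (3.11%), 4.17% in either direction. The median log2 fold change was 0.14 over the members and -0.05 over all tested genes. The members were thus called at about the rate of all genes, and the expression of these libraries had served to place the intestinal lymphomas in their arm.

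ENSCAFG00000040164 was at 109.5, 170.2, 127 and 129.96 CPM in the controls and 66.9 to 241 CPM (median 148) in the B-cell lymphomas. It was at 5.36, 18.3 and 26.9 CPM in the intestinal lymphomas and 26.1 CPM in the T-cell lymphoma. The arms did not overlap (log2 fold change 2.93, SE 0.38, edgeR adjusted p = 3.53e-07), and the B-cell lymphomas lay around the lymph nodes while the T-lineage tumours lay below them. The call thus follows in part from the choice of the list.

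ENSCAFG00000038813 was all but restricted to lymph nodes and B-cell lymphomas. The controls were at 17.8, 28.5, 26.04 and 37.4 CPM and the B-cell lymphomas at 11.6 to 56.001 CPM (median 24.5). The intestinal lymphomas had no read and the T-cell lymphoma 2.01 CPM (log2 fold change 5.71, SE 0.74, edgeR adjusted p = 3.69e-07). These lymphomas also lay below every control, so the call follows in part from the choice of the list. The B-derived lines did not hold the level of the B-cell lymphomas, with the CLBL samples at 0.298 to 2.59 CPM, GL-1 at 0 CPM and OSW and CL-1 at most at 0.356 CPM.

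ENSCAFG00000039703 had the opposite direction at low levels. It had no read in most B-cell lymphomas, which reached at most 0.452 CPM, and was at 2.04, 6.25 and 0.449 CPM in the intestinal lymphomas and 1.72 CPM in the T-cell lymphoma (log2 fold change -5.29, SE 0.64, edgeR adjusted p = 5.76e-07). The arms overlapped, because the third intestinal sample was under the floor of 3 counts, as were all 4 controls at 0 to 0.509 CPM. With the 3 intestinal lymphomas alone as the T-lineage arm 4 members passed the threshold, and all 3 named here were among them. In a fit of the lymphomas alone no member passed in edgeR, although 25 had an unadjusted p under 0.05. DESeq2 was fitted only to all samples together, where it called 5. By levels alone, 2 members had lymphoma arms that did not overlap (4.04% of the tested genes), ENSCAFG00000040164 and ENSCAFG00000038813, and without intestinal lymphoma replicate 1, 2 or 3 it was 5, 5 or 6.

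Among the lines the same question gave more calls. Of 91 members, 8 were higher in CLBL-1 and CLBL-1M (5.54% of all tested genes) and 4 were higher in the T-cell lines, taken as the mean of OSW and CL-1 (5.80%), together 12 against 11.3% in either direction. The share in either direction was therefore near that of all genes. In 8 of the 12 the samples of the arms did not overlap, with no share of all genes given beside it. Of the 12, 7 were called against OSW alone, 7 against CL-1 alone and 4 against both, namely ENSCAFG00000033379, ENSCAFG00000037331, ENSCAFG00000038945 and ENSCAFG00000039703. Each of these 4 differed from the controls in an arm of the comparison, so their calls follow in part from the choice of the list. Without either CL-1 replicate the total was 5, and without the 3 CLBL libraries that stood apart it was 8.

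ENSCAFG00000037331 was found in CLBL-1 and CLBL-1M and next to nowhere else. The CLBL-1 samples were at 16.6, 16.99, 18.5, 13.04 and 12.3 CPM and the CLBL-1M samples at 16.99, 24.2, 13.7, 13.8 and 10.3 CPM. None of the 4 controls and 16 lymphomas had a read, and GL-1 and OSW replicate 4 reached no more than 0.350 CPM, under 3 counts. At a floor of 3 counts per library the median of the CLBL samples was at least 11.2-fold higher than the B-cell lymphomas. It is on the list through the CLBL samples alone, so no test is given for their difference from the other groups.

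ENSCAFG00000038987 was high in lymph nodes and B-cell lymphomas, lower in the CLBL lines and under the floor in the T-cell lines. The controls were at 153, 107, 116 and 66.1 CPM, the B-cell lymphomas at 41.6 to 285 CPM (median 148) and the CLBL samples at 28.2 to 53.5 CPM (median 31.8). OSW replicates 1 to 3 and both CL-1 samples had no read, OSW replicate 4 was at 0.317 CPM, and GL-1 was at 1.05 CPM. The difference between the CLBL and T-cell lines passed the threshold (edgeR adjusted p = 6.73e-08). The T-cell lines also lay below every control, so this call follows in part from the choice of the list. Among the T-lineage tumours the intestinal lymphomas were low at 2.81, 8.03 and 4.04 CPM and the T-cell lymphoma was inside the B-cell range at 103 CPM.

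ENSCAFG00000039703, ENSCAFG00000038945 and ENSCAFG00000033379 stood higher in the T-cell lines. ENSCAFG00000039703 was at 9.52, 11.03, 11.9 and 11.1 CPM in OSW, 6.87 and 6.82 CPM in CL-1 and 2.80 CPM in GL-1. The 10 CLBL samples had no read, so the median of the T-cell line samples was at least 6.78-fold higher. ENSCAFG00000038945 was at 12.1, 7.47, 6.78 and 5.71 CPM in OSW and 19.6 and 28.5 CPM in CL-1, and at most 1.30 CPM in every other sample. Both are on the list through the samples where they are high, so no test of these differences is given. ENSCAFG00000033379 differed in kind, since it was present almost everywhere except in the CLBL lines. It was at 11.4, 9.68, 13.5 and 12.2 CPM in the controls, 1.47 to 21.8 CPM in the lymphomas, 6.03, 4.98, 6.44 and 9.52 CPM in OSW, 4.12 and 7.13 CPM in CL-1 and 5.25 CPM in GL-1, but at most 0.431 CPM in the CLBL samples (log2 fold change -6.01, SE 0.72, edgeR adjusted p = 6.95e-08). The CLBL samples were also what set it most apart from the controls, so this call follows in part from the choice of the list.

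A rule on detection alone was also applied. At the floor of 3 counts, 4 members were found in at least 8 of the 10 CLBL samples and in no OSW or CL-1 sample (1.21% of the tested genes), namely ENSCAFG00000037331, ENSCAFG00000038699, ENSCAFG00000038987 and ENSCAFG00000040593. The converse, every OSW or every CL-1 sample but no CLBL sample, held for 7 members (8.32%). ENSCAFG00000038699 was near the floor in the CLBL samples, at 0.808 to 3.47 CPM, so that its absence from the T-cell lines is uncertain at this depth. ENSCAFG00000040593 was at 3.35 to 11.1 CPM there and belongs to the members with control replicate 4 apart.

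Other members had a line that stood out by its values. ENSCAFG00000038359 was at 62.5 and 78.7 CPM in the CL-1 samples and at most 0.435 CPM in the other 35. ENSCAFG00000032828 was at 57.05 to 134 CPM in the CLBL samples, 134 CPM in GL-1 and 98.6 and 104 CPM in CL-1, against 7.76 to 19.99 CPM in the controls, and had no read in the 4 OSW samples. The test against both T-cell lines called it, but its difference lay with OSW alone (log2 fold change 11.15, SE 1.12, adjusted p = 1.29e-09), and did not pass against CL-1 (log2 fold change 0.07, SE 0.60, adjusted p = 1, both edgeR). In ENSCAFG00000032828 OSW lay below and the CLBL samples above every control, so the call against OSW follows in part from the choice of the list. ENSCAFG00000036407 was at 3.45 to 16.1 CPM in the CLBL samples and 1.36 to 1.78 CPM in OSW, without a read in CL-1 and GL-1 and at most at 0.869 CPM in controls and lymphomas.

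GL-1 was the highest of all 37 samples in 7 members (7.39% of the tested genes) and the lowest in 1 (2.62%), with 1 sample and so no replicate check. ENSCAFG00000035602 was at 0.350 CPM in GL-1 and at 41.8 to 332 CPM in the other 36 samples. ENSCAFG00000040955, named after its values were seen, was at 43.1 CPM in GL-1 and 20.96 and 18.6 CPM in CL-1, at 0.913 to 6.09 CPM in the controls and at most 0.893 CPM in the CLBL samples. ENSCAFG00000034067 set the T-cell lines apart from each other, with OSW at 107, 186, 126 and 149 CPM, CL-1 at 15.1 and 12.7 CPM and the controls at 74.4, 119, 87.3 and 51.3 CPM.

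**Figure D4:**
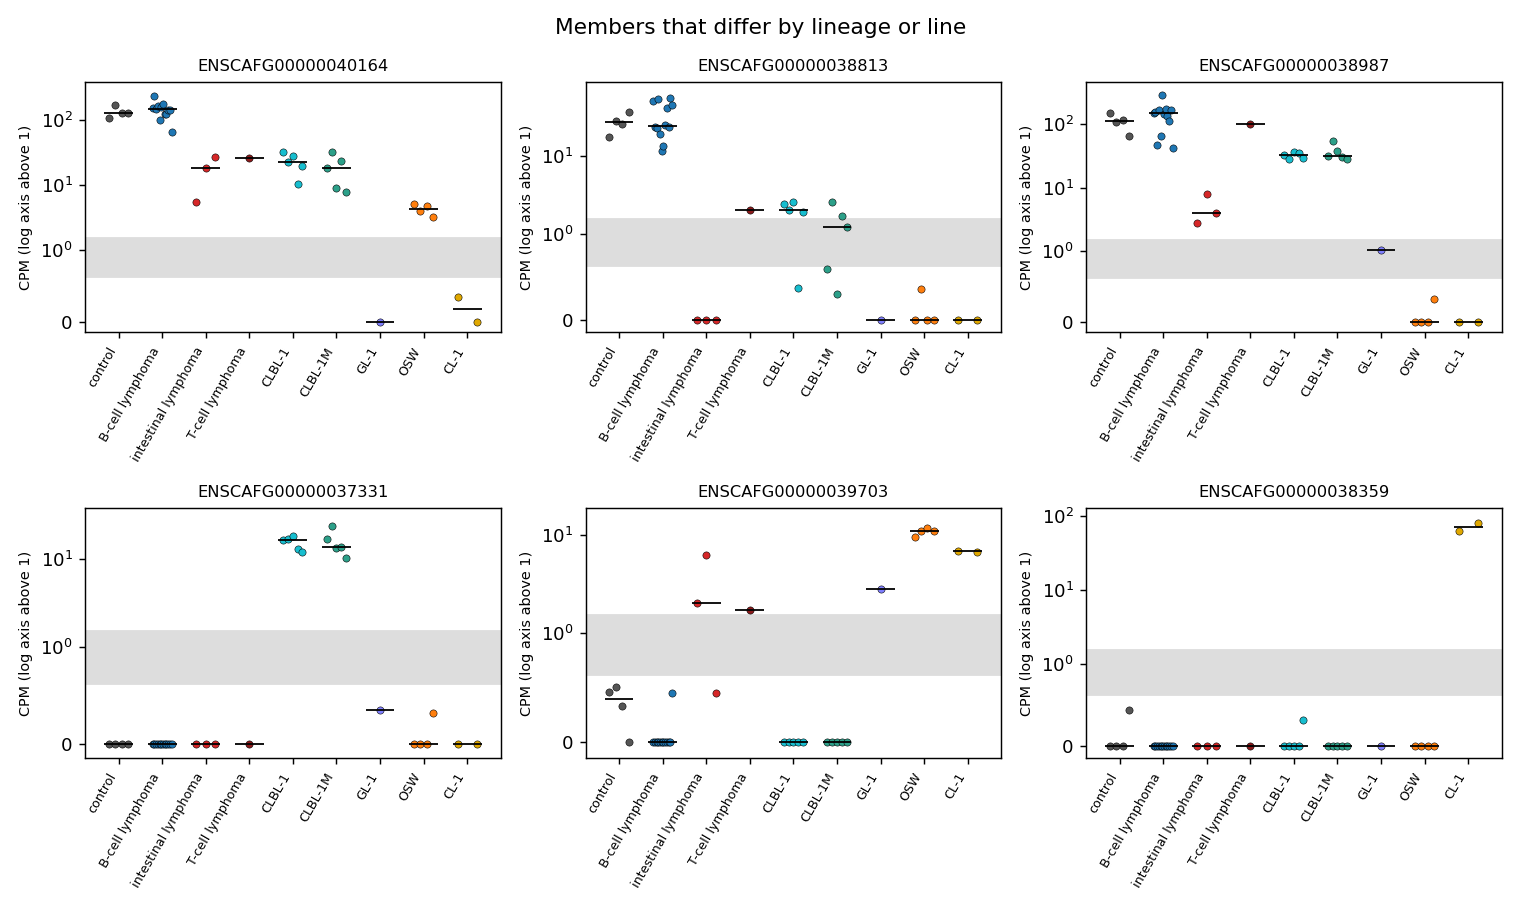
CPM of 6 members in every sample by group, with the median of each group as a line and the range of 3 counts over the libraries as a grey band (log axis above 1 CPM, linear below). ENSCAFG00000040164 and ENSCAFG00000038813 separate B-cell from T-lineage lymphomas, ENSCAFG00000038987 and ENSCAFG00000037331 are present in the CLBL lines and not in OSW and CL-1, ENSCAFG00000039703 is present in the T-cell lines and ENSCAFG00000038359 in CL-1 alone.

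Primary B-cell lymphomas and the B-cell lines CLBL-1 and CLBL-1M were compared next. Of 91, 21 were higher in the lymphomas (14.2% of all tested genes) and 18 were higher in the lines (8.33%), together 39 against 22.6% in either direction. In 27 of the 39 the samples did not overlap, with no share of all genes given beside it. The median log2 fold change was 0.23 over the members and 0.23 over all tested genes. The members had been chosen partly for B-cell lymphomas or CLBL samples that differ from the controls, so a share above that of all genes follows in part from the choice. Without the 3 CLBL libraries that stood apart 32 members were called. The arms of this comparison lie on different sides of the read-overlap split, from which it cannot be told apart.

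Among the members higher in the lymphomas, ENSCAFG00000037515 stood first, followed by ENSCAFG00000036211, whose values are given above. The median of ENSCAFG00000036211 was 75.6 times higher in the lymphomas (log2 fold change 6.22, SE 0.58, edgeR adjusted p = 1.31e-10). Its CLBL samples lay below every control, whereas its B-cell lymphomas overlapped the controls. The call thus follows in part from the choice of the list. ENSCAFG00000033379 was at 1.47 to 21.8 CPM (median 4.36) in the B-cell lymphomas against at most 0.431 CPM in the CLBL samples (log2 fold change 5.97, SE 0.68, edgeR adjusted p = 1.35e-08). As said above, the CLBL samples were also what set this member most apart from the controls. ENSCAFG00000040907 varied widely among the dogs, at 28.03 to 1057 CPM (median 142) in the B-cell lymphomas, and was at 2.52 to 19.05 CPM in the CLBL samples (log2 fold change 4.57, SE 0.65, edgeR adjusted p = 3.15e-07), a call that was lost without the 3 CLBL libraries that stood apart (edgeR adjusted p = 1.40e-05). Its controls were even at 152, 106, 167 and 125 CPM, the intestinal lymphomas ran from 0.766 to 122 CPM, CL-1 was at 77.7 and 74.7 CPM and OSW at no more than 1.27 CPM. Here too the CLBL samples lay below every control, so the call follows in part from the choice of the list.

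Of the members higher in the lines, ENSCAFG00000037331 had the largest difference, but it is on the list through the CLBL samples alone. ENSCAFG00000036407 was at 0 to 0.841 CPM in the B-cell lymphomas and ENSCAFG00000037917 at most at 0.392 CPM, against 3.51 to 11.7 CPM in the CLBL samples. ENSCAFG00000032828 had medians of 10.3 and 96.3 CPM, 9.34 times higher in the lines (log2 fold change -2.90, SE 0.35, edgeR adjusted p = 4.17e-08). The CLBL samples of ENSCAFG00000032828 also lay above every control, so its call follows in part from the choice of the list. Among the members named here, ENSCAFG00000037917 has control replicate 4 apart from the other controls, as described above.

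**Figure D5:**
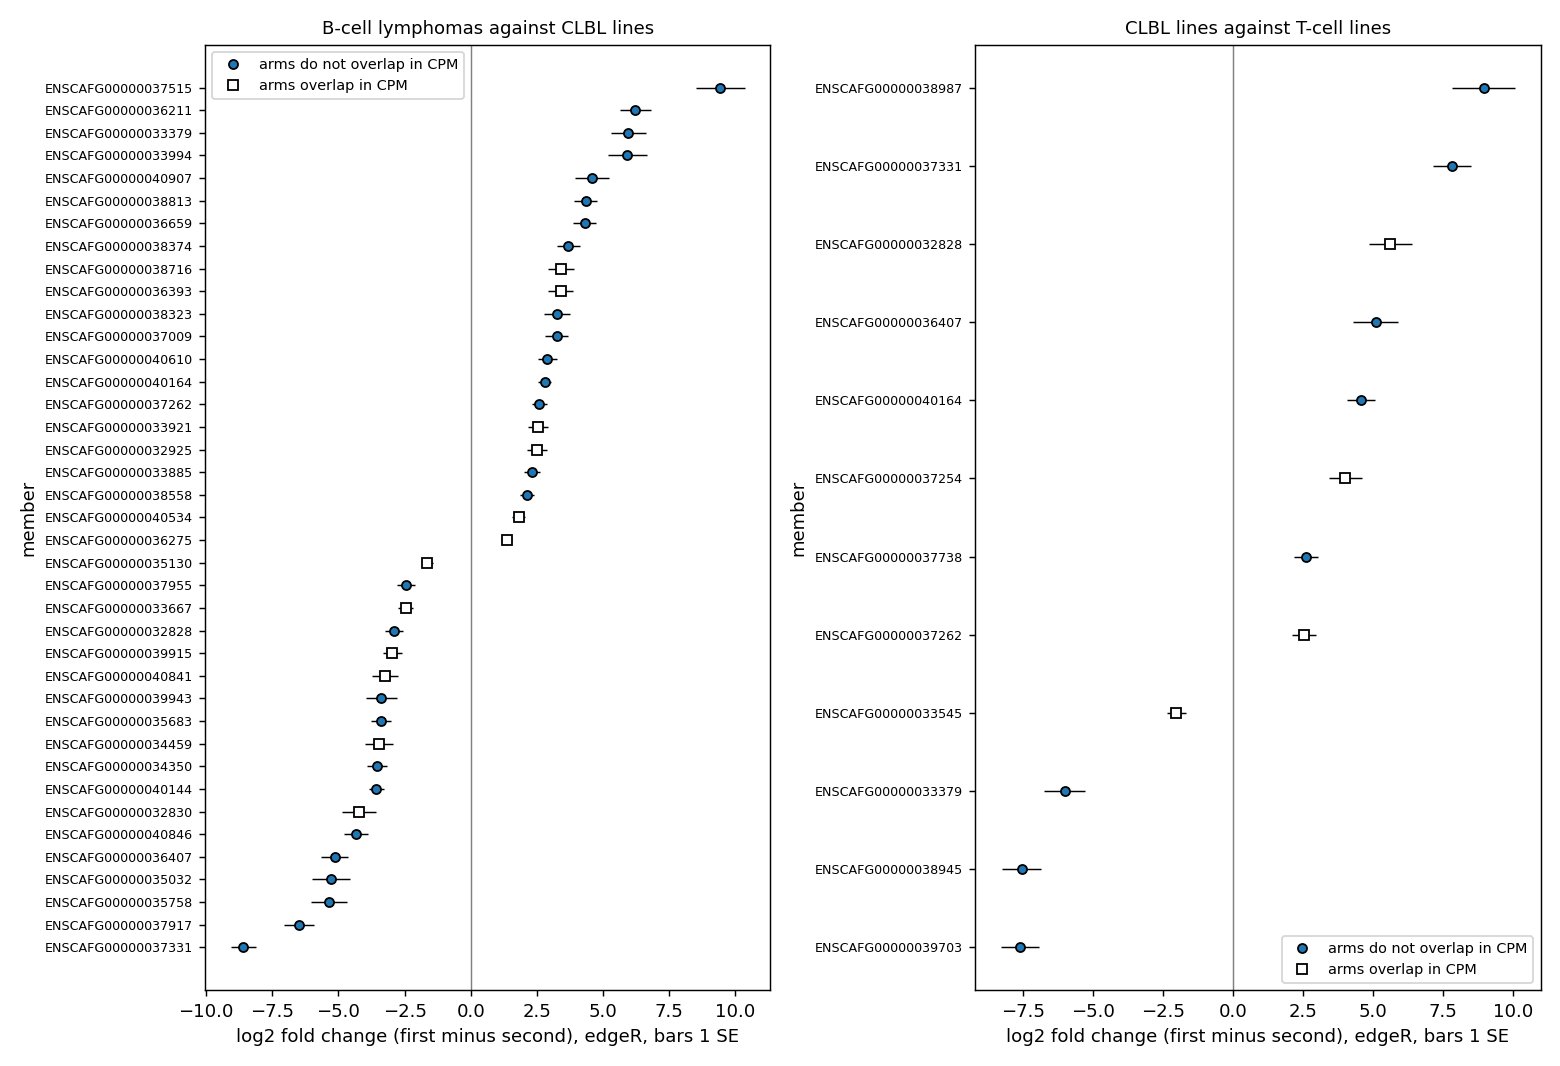
Log2 fold changes (edgeR) of the members called at an adjusted p of at most 1e-05, positive where the first arm is higher. B-cell lymphomas against the CLBL lines are on the left (39 members), and the CLBL lines against the T-cell lines OSW and CL-1 on the right (12 members). Bars are 1 standard error, worked out from the F statistic of the test. Filled circles mark the 27 and 8 members whose arms do not overlap in CPM, open squares those whose arms do.

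In the T lineage the same comparison, of the 4 intestinal and T-cell lymphomas with OSW and CL-1, called 9 of 91 members. In 8 of the 9 the arms did not overlap, with no share of all genes given beside it. Of the 9 called, 6 were higher in the lymphomas (5.43% of all tested genes) and 3 were higher in the lines (0.943%), 6.38% in either direction. Without either CL-1 replicate the count was 2, with OSW alone as the line arm it was 3, without the 3 CLBL libraries that stood apart it was 7, and DESeq2 called 17. In a fit of only these groups no member passed in edgeR, although 56 had an unadjusted p under 0.05. ENSCAFG00000037262 was at 7.15, 33.9 and 37.7 CPM in the intestinal lymphomas, 49.3 CPM in the T-cell lymphoma, 2.22, 1.78, 3.05 and 2.22 CPM in OSW and 1.37 and 0.310 CPM in CL-1 (log2 fold change 4.58, SE 0.48, edgeR adjusted p = 5.46e-09). ENSCAFG00000034748, a member that followed the read-overlap split, was at 2.55 to 7.14 CPM in these lymphomas and 41.2 to 57.7 CPM in the T-cell lines (log2 fold change -3.19, SE 0.51, edgeR adjusted p = 7.44e-06). It missed the threshold without the 3 CLBL libraries, which enter the shared estimate of the spread (edgeR adjusted p = 2.50e-05). In both members the T-cell lines lay outside the range of the controls, so these calls follow in part from the choice of the list.

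Both lymphoma against line comparisons called ENSCAFG00000034350, ENSCAFG00000036211, ENSCAFG00000037262, ENSCAFG00000038558 and ENSCAFG00000040164, which is 12.8% of the B-lineage and 55.6% of the T-lineage list. All 5 had the same direction in both, and ENSCAFG00000034350 alone was higher in the lines. The comparisons share no sample, but both cross the read-overlap split, and no share of all genes is given for the members called in both. ENSCAFG00000037254, chosen after its values were seen, was compared between the lineages, with levels at 0.411 to 10.1 CPM (median 2.89) in the B-cell lymphomas and 2.98 to 10.5 CPM (median 5.37) in the CLBL samples, but at 5.62 to 12.1 CPM in the T-lineage lymphomas, 2.54, 3.91, 1.36 and 3.17 CPM in OSW and 0 CPM in both CL-1 samples. It was called in the T lineage (log2 fold change 4.57, SE 0.64, edgeR adjusted p = 1.18e-06), and in the B lineage the arms overlapped. With OSW alone as the line arm the T-lineage difference was 1.55 and not called (edgeR adjusted p = 0.0119), and with CL-1 alone, where no read was found, it was 7.59. The difference between the lineages, B minus T, was -5.24 on the log2 scale (SE 0.71, edgeR adjusted p = 1.08e-06), a contrast that was called in 3.38% of all tested genes. That call was lost with OSW alone (-2.22, edgeR adjusted p = 0.00363) and without CL-1 replicate 1 or 2 (-5.17 and -5.16, edgeR adjusted p = 6.53e-05 and 7.62e-05).

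The contrast with the controls that chose the list was refitted here once to place its edge. Of 91 members, 61 passed an adjusted p of 1e-05 in at least 1 of the 7 tumour groups, against 28.2% of all tested genes, which is how the list was made and not a result. The member just inside was ENSCAFG00000038359, present in CL-1 only, and the member just outside was ENSCAFG00000040593, at 4.11, 0, 2.31 and 36.9 CPM in the controls. Of the 46 members that met none of the 8 rules, 17 also met neither of the rules added later.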

How the data were processed

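Poly-A RNA of 37 canine samples was read as 100-bp paired ends. According to the study's methods and the submitters' processing notes, the authors used BWA for mapping (CanFam3.1), took out duplicates and poor mappings by means of Picard and SAMtools, and ran HTSeq 0.6.1 on the genes of Ensembl release 85. The deposited values are these raw counts, 1 file per sample. The strand setting is not given in the sources used here, so reads of a lncRNA and of a gene that overlaps it on the other strand cannot be told apart. HTSeq's closing lines are no genes and were left out of library sizes, the reads outside genes being 68.0 to 82.9% per sample.

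Samples were grouped by their titles, since the source name of control replicate 4 and the flow cytometry field disagree with these, as do the names of the CLBL-1 and CLBL-1M files. CPM was taken from the sum over Ensembl genes. Tests used edgeR 4.0.16 (R 4.3.3, TMM, quasi-likelihood) on all samples in 1 model of 8 groups, with Benjamini-Hochberg adjustment over 15162 genes and the study's threshold of 1e-05. The model was tested on simulated data. The SE of an edgeR fold change was worked out from that fold change and the F statistic of its test. It is rough where an arm had no read. DESeq2 1.42.0, other scaling, no filter, thinned counts, other arms, a replicate block and leaving out replicates were alternatives. The members, the rules on levels and the lists were chosen with earlier results of these data known. The genes named are the 5 with the highest median per rule, the 3 with the largest fold change per direction and comparison among those with arms apart, and the highest and lowest member, and any other is said to have been chosen after its values were seen or falls under a count. The samples of a line are cultures of that line and not of several animals. The spread behind each p-value was estimated over all 8 groups, cultures and tissues of different dogs alike. The closest pair, CLBL-1 replicates 1 and 3, differed beyond counting noise (chi-square per degree of freedom 1.33). The floors of 3 counts cover counting error only, while the SE of a fold change also holds the spread between samples that the model estimated. The marker lists of B cells, T cells, myeloid, stromal, follicular dendritic, epithelial and dividing cells gave no result, because the identifiers were not paired with symbols here.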

Additional observations from a re-analysis of the deposited data

Results flagged for a closer look

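In 128 pairs of a named member and a group of 4 to 10 samples, 13 had a highest or lowest sample far from the others, and 6 of the 13 were control replicate 4. Chance flags about 1 in 20 such groups, but the members were named by their levels, so the count cannot be weighed against that rate. ENSCAFG00000034350, ENSCAFG00000039943 and ENSCAFG00000040846 meet the read-overlap rule, which requires controls 1 to 3 to lie below control replicate 4. In that sample ENSCAFG00000034350 was at 7.82 CPM (other controls at most 0.509 CPM), ENSCAFG00000035758 at 19.1 CPM (1.32 CPM), ENSCAFG00000037917 at 12.6 CPM (1.02 CPM), ENSCAFG00000039943 at 28.3 CPM (1.37 CPM), ENSCAFG00000040593 at 36.9 CPM (4.11 CPM) and ENSCAFG00000040846 at 19.99 CPM (2.28 CPM). Reads on more than 1 gene were most common in this sample too, at 2.78%, and its source label names a T-cell line. The part of either in these levels was not tested.

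In control replicate 3 ENSCAFG00000036275 was at 10.2 CPM and in the other controls at 7.82 to 8.21 CPM. In CLBL-1M replicate 2 ENSCAFG00000035129 was low at 54.5 CPM (others 92.9 to 99.0 CPM), beside CLBL-1 replicates 1 and 3 at 63.4 and 61.7 CPM, the 3 CLBL libraries that stood apart in many genes. In the same sample ENSCAFG00000035346 was at 3.53 CPM (others up to 0.893 CPM) and ENSCAFG00000040593 at 11.1 CPM (others up to 4.10 CPM). ENSCAFG00000032813 reached 37.2 CPM in CLBL-1M replicate 3 (others up to 12.9 CPM), ENSCAFG00000036390 3.73 CPM in CLBL-1 replicate 4 (others up to 1.72 CPM) and ENSCAFG00000035509 192.6 CPM in OSW replicate 1 (others up to 166 CPM).

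ENSCAFG00000037254 was flagged because the lymphoma against line difference was not the same in both lineages. The B-lineage difference minus the T-lineage difference was -5.24 on the log2 scale (SE 0.71, edgeR adjusted p = 1.08e-06), a contrast chosen after the values were seen and called in 3.38% of all tested genes. Both CL-1 samples had no read of it. With OSW alone as the T-cell line arm the difference was -2.22 (adjusted p = 0.00363), and without CL-1 replicate 1 or 2 it was -5.17 and -5.16 (adjusted p = 6.53e-05 and 7.62e-05, all edgeR), so that the call was lost in these 3 fits.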

How the results depend on the processing

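The counts of called members are given in the order B-cell against T-lineage lymphomas, CLBL against T-cell lines, B-cell lymphomas against CLBL lines and T-lineage lymphomas against T-cell lines, where the reported counts are 3, 12, 39 and 9. At an adjusted p of 0.05 they were 24, 40, 76 and 54. With DESeq2 they were 5, 12, 48 and 17. In fits of only the groups compared they were 0, 18, 39 and 0 (edgeR, with 25 and 56 members at an unadjusted p under 0.05 where the count was 0), and with OSW alone as the T-cell line arm the last was 3. The cause of these shifts was not tested. With the replicate number as a block the counts were 0, 6, 16 and 4 in edgeR, with 32 members at an unadjusted p under 0.05 in the first. DESeq2 was not run with this block. The numbers do not pair the samples, since same-numbered samples deviated together no more than others (mean correlation -0.01 over 76 pairs). Leaving out 1 replicate at a time, in the groups of up to 5 samples and so not among the B-cell lymphomas, gave 3 to 4, 5 to 13, 38 to 43 and 2 to 12, the lowest in the second and the last without either CL-1 replicate, and 3, 5, 38 and 1 members were called in every such fit. Without the 3 CLBL libraries that stood apart, left out after the values were seen, the counts were 3, 8, 32 and 7. Other size factors, no filter on low counts and thinning kept each count within 1.5 times, and no called member changed direction under any alternative run. Of the rules on levels, lower in all tumours gave 12 members and 19 with controls of the same side of the read-overlap split, and lymphomas apart by lineage gave 2 and, leaving out 1 replicate, 2 to 6. Members at a few counts, among them ENSCAFG00000039703 in the lymphomas, are limited by depth.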
